A study of Xenopus laevis with 72 samples.

Results

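The step from 1.5 to 3 h of unperturbed development was measured in 12 samples of control embryos of the frog Xenopus laevis, 6 collected at 3 h and 6 at 1.5 h, out of 72 samples in the series. The samples were chosen by label as all control samples of these times, and each 3 h sample was paired with the 1.5 h sample of the same clutch, G to L. A clutch is the eggs of 1 wildtype female, fertilized in vitro, and a sample is a pool of several whole embryos. Time was counted from the wash that ended a 2 h treatment window running from late blastula to early gastrula. In that window embryos of the same clutches received 10 nM retinoic acid (RA) or 50 µM DEAB, an inhibitor of the enzymes that make RA. These treated embryos are used below for comparison. Control embryos received neither compound, and the methods do not say whether they received the solvent, DMSO. Transcripts of 23 target genes and of the reference gene gapdh (gene ID 380259) were measured by high-throughput quantitative PCR. Names ending in L and S are the duplicated genes of the 2 subgenomes of this species.

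RA is a small lipophilic signal made from vitamin A. Retinol is first oxidised to retinaldehyde, a step that reductases can turn back, and retinaldehyde dehydrogenases then oxidise retinaldehyde irreversibly to RA. Cellular binding proteins carry RA to its nuclear receptors or to CYP26 enzymes, which degrade it. In the vertebrate gastrula RA helps to pattern the head-to-tail axis, and hox genes are among its best known targets.

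The threshold cycle (Ct), the PCR cycle at which a product is detected, ran from 11.48 to 26.0 over the 12 samples, with a median of 16.82. A lower Ct means more transcript. The values below are relative expression on the log2 scale: the Ct of a gene was subtracted from that of gapdh, and 0 was set at the median of the gene over all 72 samples. A difference of 1 is a doubling if amplification was perfect, and levels of different genes cannot be compared. The number of molecules behind a Ct is unknown, so the precision comes from the spread between samples alone. The standard error (SE) of a difference between 3 h and 1.5 h ranged from 0.16 to 0.83 among the target genes, with a median of 0.42. Each SE was estimated from the spread of all 72 samples, RA and DEAB embryos included. It therefore does not measure the spread of the 6 paired differences alone. For cyp26a1.L the SD of these was 0.19, beside an SE of 0.42, although the SE of a mean of 6 differences is smaller than their SD. The fit of this gene also held a value of -4.725 in RA embryos of clutch G at 0 h, where the group median was -0.37. The part of that sample in the SE was not tested. The only missing values were 3 of hoxd3.L. In pooled whole embryos, more cells expressing a gene and more RNA per cell cannot be told apart.

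Between 1.5 and 3 h most of the RA network rose relative to gapdh in control embryos. Of the 23 target genes 17 were higher at 3 h (73.9%) and 0 were lower (0%) by limma with an adjusted p of at most 0.05, and without adjustment the counts were also 17 and 0. The fitted differences, always 3 h minus 1.5 h, ran from -0.55 for rdh13.L to 3.58 for crabp2.S, with a median of 1.60 over all target genes. For 9 genes (39.1%) every 3 h sample lay above every 1.5 h sample, and for no gene (0%) did all 3 h samples lie below. In 14 of the 22 genes with complete values the difference was positive in 6 of 6 clutches. Each of these 14 had the smallest p the exact two-sided sign-flip permutation test over 6 clutches can give, 0.03125. After adjustment over the panel this smallest p became 0.0513, so 0 genes passed that test.

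**Figure D1:**
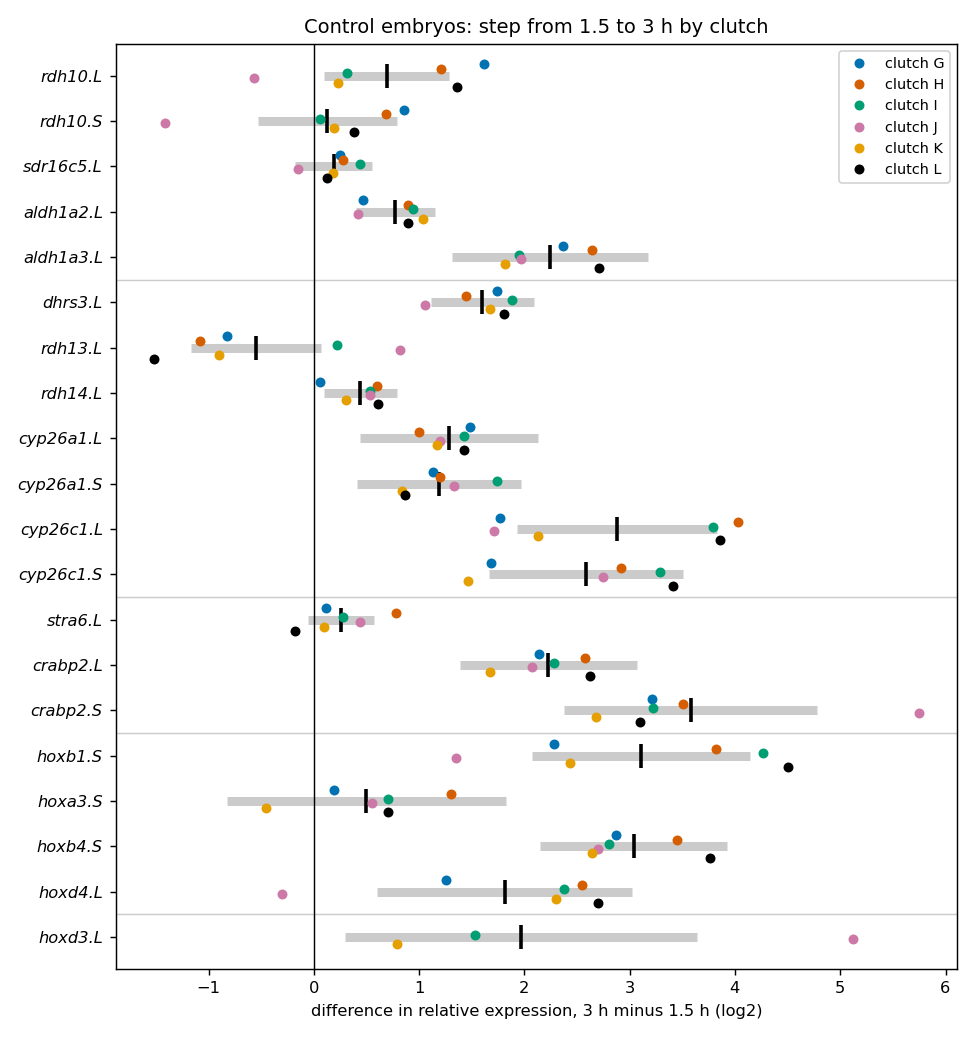
Difference in relative expression (log2), 3 h minus 1.5 h, for 20 target genes of control embryos. Points are clutches, black ticks the fitted difference, grey bars its 95% interval, and grey lines separate, from the top, the genes of RA synthesis, those of reduction and degradation, those of binding and transport, the hox targets, and hoxd3.L, which has 3 clutches only. Most points lie right of 0, up to 5.75 for crabp2.S in clutch J, while rdh13.L lies mostly left of 0. The direction is relative to gapdh, and with no reference gene the fitted differences of rdh10.S, sdr16c5.L, rdh14.L, stra6.L and hoxa3.S were below 0.

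All differences rest on gapdh, so its own Ct was examined first. The Ct of gapdh was 12.49, 13.66 and 14.77 at 3 h and 12.26, 12.95 and 13.86 at 1.5 h (lowest, median and highest of 6). It was higher at 3 h in 6 of 6 clutches, by 0.82 in G, 0.91 in H, 0.07 in I, 0.87 in J, 0.32 in K and 0.91 in L. The mean rise was 0.65 ± 0.36 cycles (SD, n = 6; exact two-sided sign-flip permutation test, p = 0.03125, the smallest possible). Between the same times it differed by 0.50 ± 0.80 cycles in RA embryos (4 of 6 clutches higher) and by 0.75 ± 0.25 cycles in DEAB embryos (6 of 6). Whether less gapdh transcript or less RNA entered the 3 h reactions cannot be told apart here. When gapdh was left out and the Ct alone was used, the median difference of the target genes was 0.95, a shift of -0.65, and 8 genes were called higher and 1 lower. When each sample was instead referred to the mean of its target genes (the panel mean), the median was 0.14, a shift of -1.46, and 5 genes were called higher and 8 lower. The panel mean itself moves with the genes that rose, so a gene with a smaller step than the panel is placed below 0. The genes called higher under all 3 references were crabp2.S, hoxb1.S, hoxb4.S, cyp26c1.L and cyp26c1.S. A change of reference moved the difference of every gene with complete values by the same amount. These were therefore the 5 genes with the largest differences, and the 3 references are not separate support for them.

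**Figure D2:**
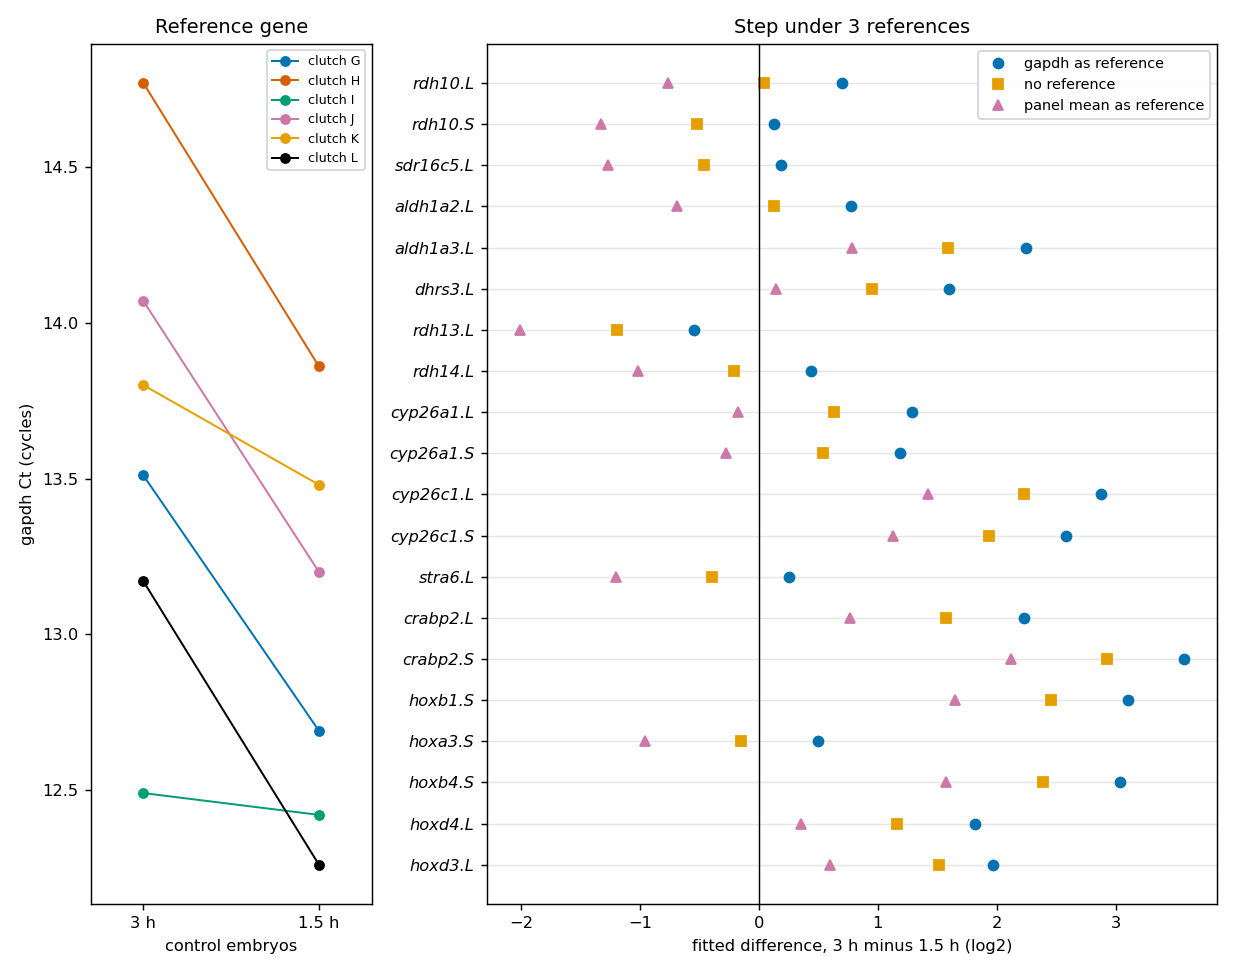
Left, Ct of gapdh (cycles) in control embryos at 3 h and 1.5 h, with lines joining the samples of a clutch, all 6 of which lie higher at 3 h. Right, fitted difference (log2), 3 h minus 1.5 h, of 20 target genes with gapdh, nothing or the panel mean as reference. The order of genes with complete values is fixed, since a change of reference moves them all alike, and only the zero moves. With no reference rdh10.S, sdr16c5.L, rdh14.L, stra6.L and hoxa3.S fall below 0. With the panel mean rdh10.L, aldh1a2.L, cyp26a1.L and cyp26a1.S also do.

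Hox genes give cells their position along the head-to-tail axis, and 6 of those on the panel formed the list of hox targets. hoxd3.L was kept out of this list because of its missing values. In this list 5 of 6 rose and 0 fell, beside 17 of 23 (73.9%) over all target genes, and the median difference was 1.94 beside 1.60. Without a reference gene 3 of the 6 were called higher, against the panel mean 2 were, and none was called lower under either. The list was picked by the study as RA targets and the counts are no independent evidence of a direction.

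hoxb1.S (gene ID 108702519), the gene closest to the front of the axis among those named here, stood at 0.39, 0.92 and 2.64 at 3 h and at -3.82, -1.61 and -0.81 at 1.5 h (lowest, median and highest). The groups did not overlap, and the fitted difference was 3.11 (SE 0.52, adjusted p = 6.69e-07), an 8.62-fold change, higher in 6 of 6 clutches. The clutches fell into steps of 3.82 in H, 4.27 in I and 4.50 in L, and of 2.28 in G, 1.35 in J and 2.43 in K. Clutch L started from the lowest level of the 6 and clutch J from the highest. The 1.5 h level is part of the step, so this order is no separate observation.

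hoxb4.S (gene ID 734796), expressed further back along the axis, rose almost as much but far more evenly. Its levels were 0.60, 1.05 and 2.42 at 3 h and -3.17, -1.74 and -1.04 at 1.5 h, without overlap. The fitted difference was 3.04 (SE 0.44, adjusted p = 1.21e-07), and the clutch steps ran from 2.64 in K to 3.76 in L, with an SD of 0.46 beside 1.27 for hoxb1.S.

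hoxd4.L (gene ID 100380950), a hox gene of the same paralogue group as hoxb4.S, rose by 1.82 (SE 0.60, adjusted p = 0.0065), with levels of -0.88, 0.70 and 1.77 at 3 h and -2.68, -0.87 and -0.48 at 1.5 h. The groups overlapped through clutch J, where it stood at -0.88 at 3 h and -0.58 at 1.5 h, a step of -0.30. In the other 5 clutches the step was 1.26 to 2.70. The difference was 1.17 with no reference gene and was not called (adjusted p = 0.106), nor was the 0.35 against the panel mean (adjusted p = 0.499).

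hoxa3.S (gene ID 379985) did not pass the test, at 0.50 (SE 0.66, 95% interval -0.83 to 1.82, adjusted p = 0.475). It was higher at 3 h in 5 of 6 clutches, and did not pass in a fit of the 12 samples alone either (adjusted p = 0.078). With no reference gene the difference was -0.15. Its levels spread widely between clutches at both times, -3.02, 0.21 and 2.13 at 3 h and -3.72, 0.08 and 1.13 at 1.5 h. Clutch L was lowest at each time, and the SD over clutches was 1.97 at 3 h and 1.87 at 1.5 h, against 0.59 for the within-clutch difference.

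hoxd3.L (gene ID 100036911), a hox gene measured near the limit of the panel with Ct values of 21.75 to 26.0, had values at both times in clutches I, J and K only. Its steps there were 1.53, 5.12 and 0.79. The fit over all samples gave 1.97 (SE 0.83, adjusted p = 0.0305), which became 1.01 without clutch J (adjusted p = 0.315). The call also ended without clutch I or L, without the clutch block (adjusted p = 0.0774) and in a fit of the 12 samples alone (adjusted p = 0.0762). It ended as well on the Ct alone (1.51, adjusted p = 0.11) and against the panel mean (0.60, adjusted p = 0.499).

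The genes that lower RA formed the largest list, 7 genes whose products reduce retinaldehyde or degrade RA. Here 6 rose and 0 fell, with a median difference of 1.29, beside 17 risen of 23 (73.9%) and a median of 1.60 over all target genes. Without a reference gene 2 were called higher and 1 lower, and against the panel mean 2 higher and 2 lower.

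cyp26c1.L (gene ID 108696124) encodes an RA-degrading enzyme of the CYP26 family. Its levels were -0.96, 0.19 and 2.64 at 3 h and -3.51, -2.52 and -1.39 at 1.5 h. No 3 h sample was as low as any 1.5 h sample, and the fitted difference was 2.88 (SE 0.48, adjusted p = 6.69e-07), a 7.37-fold change. The steps were 4.03 in H, 3.79 in I and 3.86 in L, against 1.77 in G, 1.71 in J and 2.13 in K.

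Its duplicate cyp26c1.S (gene ID 735026) had levels of -0.14, 0.47 and 2.34 at 3 h and -3.20, -1.83 and -0.58 at 1.5 h, and rose by 2.59 (SE 0.46, adjusted p = 2.15e-06), a 6.0-fold change. The steps were 2.92 in H, 3.29 in I and 3.41 in L, and 1.68 in G, 2.75 in J and 1.46 in K. Clutches H, I and L thus had the 3 highest steps for both cyp26c1 genes and for hoxb1.S. The Ct of gapdh in these 3 clutches rose by 0.91, 0.07 and 0.91, and by 0.82, 0.87 and 0.32 in G, J and K. This grouping of clutches was noticed in the values and was not tested.

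cyp26a1.L (gene ID 496314) and cyp26a1.S (gene ID 398094) encode the CYP26 enzyme best known from RA feedback, and both rose by a smaller and even amount. For cyp26a1.L the levels were -0.09, 0.21 and 0.77 at 3 h and -1.52, -1.14 and -0.41 at 1.5 h, with clutch steps of 1.0 to 1.48 and a fitted difference of 1.29 (SE 0.42, adjusted p = 0.00627). For cyp26a1.S they were 0.05, 0.47 and 0.53 at 3 h and -1.64, -0.77 and -0.38 at 1.5 h, with steps of 0.84 to 1.74 and a fitted difference of 1.19 (SE 0.39, adjusted p = 0.00627). Neither gene had overlapping groups, and both differences turned to -0.18 and -0.28 with the panel mean as reference. On the Ct alone they were 0.64 (adjusted p = 0.18) and 0.54 (adjusted p = 0.333), and neither was called.

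The retinaldehyde reductase gene dhrs3.L (gene ID 444269), whose product returns retinaldehyde to retinol, had levels of -0.60, 0.63 and 1.26 at 3 h and -1.92, -1.15 and -0.20 at 1.5 h. The groups overlapped because clutches differed at both times, but each clutch rose, by 1.06 in J and by 1.45 to 1.88 in the others. The fitted difference was 1.60 (SE 0.24, adjusted p = 1.91e-07), a 3.03-fold change. It was 0.95 (adjusted p = 0.0521) with no reference gene and 0.14 against the panel mean.

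rdh14.L (gene ID 108717195), a retinol dehydrogenase family gene whose mammalian product works on retinaldehyde, rose by only 0.44 (SE 0.17, adjusted p = 0.021), and this direction turned to -0.21 with no reference gene and -1.02 against the panel mean. Its levels were -0.18, 0.31 and 0.78 at 3 h and -0.79, -0.22 and 0.72 at 1.5 h, and its steps ran from 0.06 in G to 0.61 in L. The call ended without clutch H or I (adjusted p = 0.0723 and 0.063), without the clutch block (adjusted p = 0.235), and in the fit of 24 control samples (adjusted p = 0.0758).

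The family member rdh13.L (gene ID 444106), whose mammalian product is mitochondrial, had the lowest difference of the panel, -0.55 (SE 0.31, 95% interval -1.16 to 0.07, adjusted p = 0.104). Its levels were -1.59, -0.93 and 1.03 at 3 h and -0.97, -0.18 and 1.85 at 1.5 h. It was lower at 3 h in G, H, K and L, by 0.82 to 1.52, and higher in I and J, at 0.22 and 0.82. Without clutch J the difference was -0.82 and past the threshold (adjusted p = 0.0165). The Ct alone gave -1.20, also called lower (adjusted p = 0.0152).

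In the list of RA synthesis 3 of 5 genes rose and 0 fell, beside 17 of 23 (73.9%) over all target genes, and the median difference was 0.70 beside 1.60. Without a reference gene 1 of the 5 was called higher and 0 lower, and against the panel mean 0 were called higher and 4 lower.

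aldh1a3.L (gene ID 733178), which encodes a retinaldehyde dehydrogenase, stood apart from the rest of this list. Its levels were 0.24, 1.01 and 2.12 at 3 h and -1.88, -1.32 and -0.52 at 1.5 h, without overlap. It rose by 2.24 (SE 0.46, adjusted p = 2.83e-05), a 4.73-fold change, with clutch steps of 1.82 to 2.71. With the panel mean as reference the difference was 0.78 and was not called (adjusted p = 0.0912).

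The related gene aldh1a2.L (gene ID 399389), which encodes the main RA-making enzyme of the early vertebrate embryo, rose by 0.78 (SE 0.19, adjusted p = 3e-04), a 1.71-fold change that turned to -0.69 with the panel mean. It was at -0.19, 0.52 and 0.90 at 3 h and at -1.08, -0.37 and 0.18 at 1.5 h. The steps were 0.42 in J and 0.47 in G, and 0.89 to 1.04 in the other clutches. On the Ct alone the difference was 0.13 and the call ended (adjusted p = 0.803).

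rdh10.L (gene ID 446860), which encodes the retinol dehydrogenase that feeds RA synthesis, was at -0.16, 0.31 and 0.80 at 3 h and at -1.45, -0.43 and 0.41 at 1.5 h. The fitted difference of 0.70 (SE 0.30, adjusted p = 0.0305) turned to -0.77 with the panel mean, and it was 0.05 with no reference gene. The steps were 1.62 in G, 1.21 in H and 1.36 in L, 0.32 in I and 0.23 in K, and -0.57 in J. The call ended without clutch G, H or L (adjusted p = 0.148, 0.10 and 0.147), without the clutch block (adjusted p = 0.0798), and with 24 control samples or the 12 samples alone (adjusted p = 0.0622 and 0.0762).

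Its duplicate rdh10.S (gene ID 431995) and the retinol dehydrogenase family gene sdr16c5.L (gene ID 444148) did not pass the test. For rdh10.S the levels were -1.12, 0.25 and 1.02 at 3 h and -0.63, 0.00 and 0.33 at 1.5 h, and the difference was 0.13 (95% interval -0.53 to 0.79, adjusted p = 0.699), made up of 0.06 to 0.86 in 5 clutches and -1.41 in J. For sdr16c5.L they were -0.56, 0.15 and 0.44 at 3 h and -0.70, -0.03 and 0.16 at 1.5 h, with a difference of 0.19 (95% interval -0.18 to 0.55, adjusted p = 0.337). Both differences were below 0 with no reference gene, at -0.52 and -0.46.

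Binding and transport were represented by 4 genes, of which 2 rose, 0 fell and 2 did not pass, with a median difference of 1.26. Over all target genes 17 of 23 rose (73.9%) and the median was 1.60. Without a reference gene 2 were again called higher and 0 lower, whereas the panel mean gave 1 higher and 2 lower. The members that rose were both genes of the cellular RA-binding protein crabp2, which hands RA to its nuclear receptor.

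crabp2.S (gene ID 108700362) had the largest difference of all target genes. Among genes with complete values this rank cannot change with the reference, which moves them all alike. Its levels were 0.26, 1.08 and 2.27 at 3 h and -4.23, -2.63 and -1.25 at 1.5 h, far apart, and the fitted difference was 3.58 (SE 0.60, adjusted p = 6.69e-07), an 11.9-fold change. The step was 5.75 in clutch J, which held the lowest 1.5 h level, itself part of the step, and 2.68 to 3.51 in the others. Without clutch J the gene was still called higher (adjusted p = 7.24e-05).

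crabp2.L (gene ID 378522) was at 0.34, 0.62 and 1.35 at 3 h and at -2.10, -1.54 and -0.61 at 1.5 h, also without overlap. It rose by 2.23 (SE 0.42, adjusted p = 6.39e-06), a 4.68-fold change, with steps of 1.67 to 2.62. Against the panel mean it was 0.77 and not called (adjusted p = 0.0912). stra6.L (gene ID 108711302), whose mammalian product takes up retinol into cells, was at -0.33, 0.15 and 0.35 at 3 h and at -0.44, -0.26 and 0.39 at 1.5 h. Its difference was 0.26 (SE 0.16, 95% interval -0.05 to 0.57, adjusted p = 0.126), and -0.39 with no reference gene.

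Duplicated genes allow a comparison in which gapdh cancels, since both members carry the same gapdh Ct. The step of the L member minus that of the S member was tested in 5 pairs, and 0 pairs (0%) passed. For crabp2 it was -1.35 (SE 0.60, 95% interval -2.56 to -0.15, adjusted p = 0.143), lower for L in 6 of 6 clutches, and -0.89 without clutch J, where it was -3.68. For rdh10 it was 0.57 (SE 0.37, 95% interval -0.17 to 1.31, adjusted p = 0.327), higher for L in 6 of 6 clutches. In a fit of the 12 samples alone these 2 pairs passed, with adjusted p-values of 0.0248 and 0.0419. The difference was 0.30 for cyp26c1 (95% interval -0.59 to 1.18, adjusted p = 0.795) and 0.10 for cyp26a1 (95% interval -0.67 to 0.87, adjusted p = 0.795). For cyp26a1 the sign was split 3 to 3 among clutches, and for cyp26c1 clutch J stood at -1.04 and the others at 0.09 to 1.11.

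**Figure D3:**
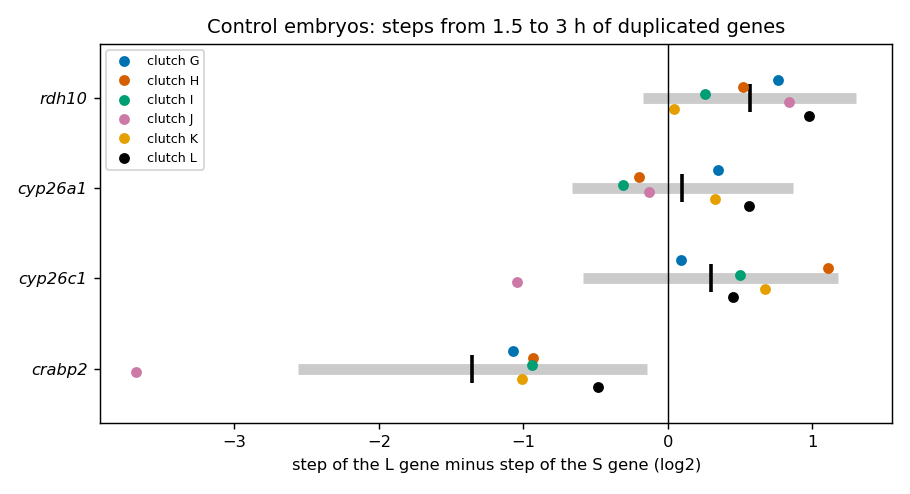
Step of the L gene minus step of the S gene (log2) between 1.5 and 3 h in control embryos, for 4 pairs. Points are clutches, black ticks the fitted value and grey bars its 95% interval. All 6 points lie left of 0 for crabp2 and right of 0 for rdh10, and no pair passed the adjusted test.

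By the median over genes the clutches differed in level more than in step. Over the 22 genes with complete values the median SD between clutches was 0.70 at 3 h and 0.64 at 1.5 h, and 0.42 for the difference within a clutch. For some genes the order was the reverse. The SD of hoxb1.S was 0.84 at 3 h, 1.15 at 1.5 h and 1.27 for the step, and that of hoxd4.L was 0.96, 0.85 and 1.15. The SD of the levels was larger at 3 h than at 1.5 h for 9 genes and smaller for 13. Clutch H had the highest level of the 6 for 18 of the 22 genes at 3 h and for 10 at 1.5 h, and clutch L the lowest for 9 genes at 3 h and for 14 at 1.5 h. The Ct of gapdh, which enters every level, was highest in clutch H at both times (14.77 at 3 h and 13.86 at 1.5 h) and lowest in clutch L at 1.5 h (12.26). Its part in the order of the clutches was not tested. The median step of a clutch over the 22 genes was 1.55 in G, 1.38 in H, 1.81 in I, 0.94 in J, 1.32 in K and 1.62 in L. Clutch J had the smallest step of the 6 for 10 genes and a negative step for 5 of 22, but the largest for 2, while clutch L had the largest for 9. Clutch J had the lowest median step in 2 of the 4 lists. Its median step was -0.15 for RA synthesis, against 0.23 to 0.89 in the other clutches, and 0.95 for hox targets, against 2.11 to 2.61. For reduction and degradation it was 1.20, within the 1.17 to 1.74 of the others, and for binding and transport 1.26, within their 0.91 to 1.68.

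The next question was whether the middle step differed from its neighbours. Each step was tested by limma on its own. Adjacent steps share 6 control samples, so whether 2 steps differed was tested only on their difference. Between 0 and 1.5 h 11 genes rose (47.8%) and 1 fell (4.35%), and between 3 and 4.5 h 8 rose (34.8%) and 0 fell (0%). The gene that fell was rdh13.L, which dropped by 1.45 between 0 and 1.5 h in all 6 clutches (SE 0.31, adjusted p = 7.89e-05). The Ct of gapdh rose by 0.475 ± 0.78 cycles between 0 and 1.5 h and by 0.17 ± 0.43 between 3 and 4.5 h (SD, n = 6). Between 1.5 and 3 h it rose by 0.65, and each rise enters the step of every target gene.

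**Figure D4:**
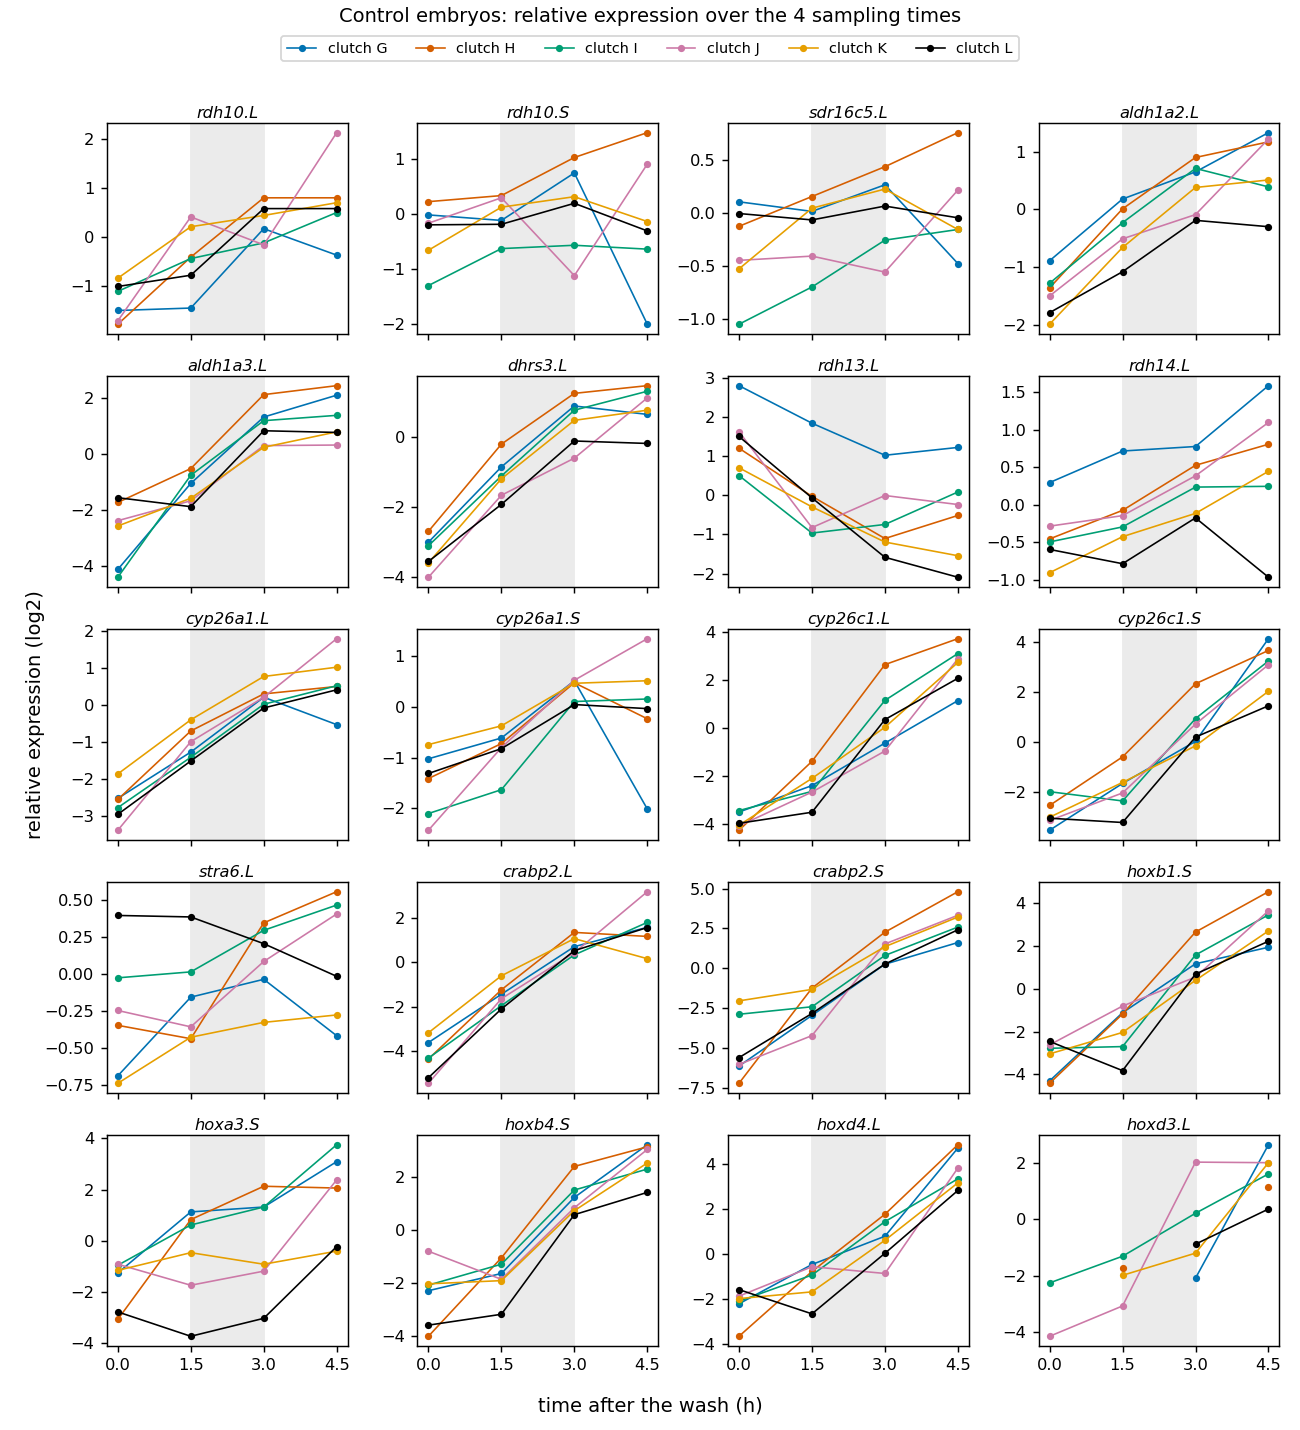
Relative expression (log2) of 20 target genes in control embryos at 0, 1.5, 3 and 4.5 h after the wash, with a line for each clutch and the step from 1.5 to 3 h shaded. The hox, cyp26c1 and crabp2 genes climb through the shaded step in nearly every clutch. hoxd3.L has gaps where values are missing, and hoxd4.L of clutch J dips by 0.30 before rising.

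Against the step from 0 to 1.5 h, 0 genes differed (0% higher and 0% lower), and 2 had an unadjusted p under 0.05. hoxb4.S changed by 0.65 between 0 and 1.5 h, by 3.04 between 1.5 and 3 h and by 1.39 between 3 and 4.5 h. Its middle step exceeded the first by 2.39 (SE 0.77, 95% interval 0.85 to 3.93, adjusted p = 0.066), in 6 of 6 clutches. This excess passed the threshold without clutch H at 2.77 (adjusted p = 0.00498) and with the panel mean (adjusted p = 0.0326). It did not pass with any other clutch left out (adjusted p = 0.0735 to 0.393), without the clutch block (adjusted p = 0.198) or with no reference gene (adjusted p = 0.402). The next smallest p-values belonged to cyp26c1.S, at 1.63 (SE 0.80, adjusted p = 0.396), and hoxb1.S, at 1.79 (SE 0.90, adjusted p = 0.396), which was 0.97 without clutch L. The steps of cyp26c1.S were 0.96, 2.59 and 2.26 in order of time, and those of hoxb1.S 1.32, 3.11 and 1.91.

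Against the step from 3 to 4.5 h also 0 genes differed (0% higher and 0% lower), and 5 had an unadjusted p under 0.05. dhrs3.L changed by 2.17, 1.60 and 0.41 over the 3 steps, and its middle step exceeded the last by 1.19 (SE 0.42, adjusted p = 0.154), in 5 of 6 clutches. Without clutch J, where the order was reversed, the excess was 1.56 and passed (adjusted p = 0.0083). With any other clutch left out it was 1.03 to 1.18 and did not pass (adjusted p = 0.169 to 0.362). With no reference gene it was 0.71 (adjusted p = 0.73). aldh1a3.L changed by 1.55, 2.24 and 0.30, with an excess of 1.94 over the last step (SE 0.80, adjusted p = 0.17) in 6 of 6 clutches. cyp26a1.S changed by 0.68, 1.19 and -0.40, with an excess of 1.59 (SE 0.67, adjusted p = 0.17), also in 6 of 6. Its last step held -2.53 in clutch G and was split 3 to 3 in sign among clutches, and without clutch G the excess was 1.17 (adjusted p = 0.362). With no reference gene the excess was 1.46 for aldh1a3.L and 1.105 for cyp26a1.S (adjusted p = 0.658 for each). hoxd4.L rose by 3.17 between 3 and 4.5 h (SE 0.60, adjusted p = 5.45e-05) and hoxa3.S by 1.83 (SE 0.66, adjusted p = 0.0247), and their middle steps differed from these by -1.35 and -1.34 (adjusted p = 0.387 for each).

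Embryos treated with RA or DEAB were compared over the same interval. In RA embryos 10 genes rose (43.5%) and 1 fell (4.35%) between 1.5 and 3 h, and in DEAB embryos 16 rose (69.6%) and 0 fell (0%). The fall in RA embryos was that of rdh13.L, which dropped by 0.73 in all 6 clutches (SE 0.31, adjusted p = 0.0441), and its step there differed from that of control embryos by -0.19 (adjusted p = 0.851).

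The step of dhrs3.L was the only one past the threshold between RA and control embryos, with 0 genes higher (0%) and 1 lower (4.35%). Without adjustment 4 genes had a limma p under 0.05, each with a smaller step under RA. In RA embryos dhrs3.L was at 0.85, 1.46 and 1.90 at 3 h and at 0.51, 1.20 and 1.70 at 1.5 h (lowest, median and highest), so that the 2 times overlapped almost completely. In control embryos it was at -0.60, 0.63 and 1.26 at 3 h and at -1.92, -1.15 and -0.20 at 1.5 h. The step was 0.26 in RA embryos and 1.60 in control embryos, a difference of -1.34 (SE 0.35, 95% interval -2.03 to -0.65, adjusted p = 0.0064), smaller under RA in 6 of 6 clutches. The call held when any 1 clutch was left out, but ended without the clutch block (adjusted p = 0.11), with no reference gene (-1.19, adjusted p = 0.327) and against the panel mean (-0.79, adjusted p = 0.212).

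Both cyp26a1 genes came next, also smaller under RA in 6 of 6 clutches, but did not pass the test. The step of cyp26a1.L was -0.47 in RA embryos and 1.29 in control embryos, a difference of -1.76 (SE 0.60, adjusted p = 0.0548). At 1.5 h cyp26a1.L was at 0.25, 1.37 and 2.89 in RA embryos and at -1.52, -1.14 and -0.41 in control embryos. The RA step rests on clutch H, where it was -2.49, the lowest of clutch steps with a median of -0.11 and a highest value of 0.23. Without clutch H the difference from control embryos was -1.41 (adjusted p = 0.318). The step of cyp26a1.S was -0.27 in RA embryos and 1.19 in control embryos, a difference of -1.45 (SE 0.55, adjusted p = 0.0815). With clutch and time together as a block, both passed (adjusted p = 0.0482 for each). cyp26a1.L also passed without clutch G (adjusted p = 0.0128), the lowest of its adjusted p-values with each clutch left out. Its difference was then -1.70, and clutch G held a low value outside this comparison, -4.725 in RA embryos at 0 h. With no reference gene the differences were -1.61 for cyp26a1.L and -1.31 for cyp26a1.S, and with the panel mean -1.21 and -0.91. None of these passed (adjusted p = 0.114 to 0.387). Without the clutch block neither gene passed (adjusted p = 0.11 for each). With clutch and time together as a block the count of genes that differed was 3, and without the clutch block it was 0.

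**Figure D5:**
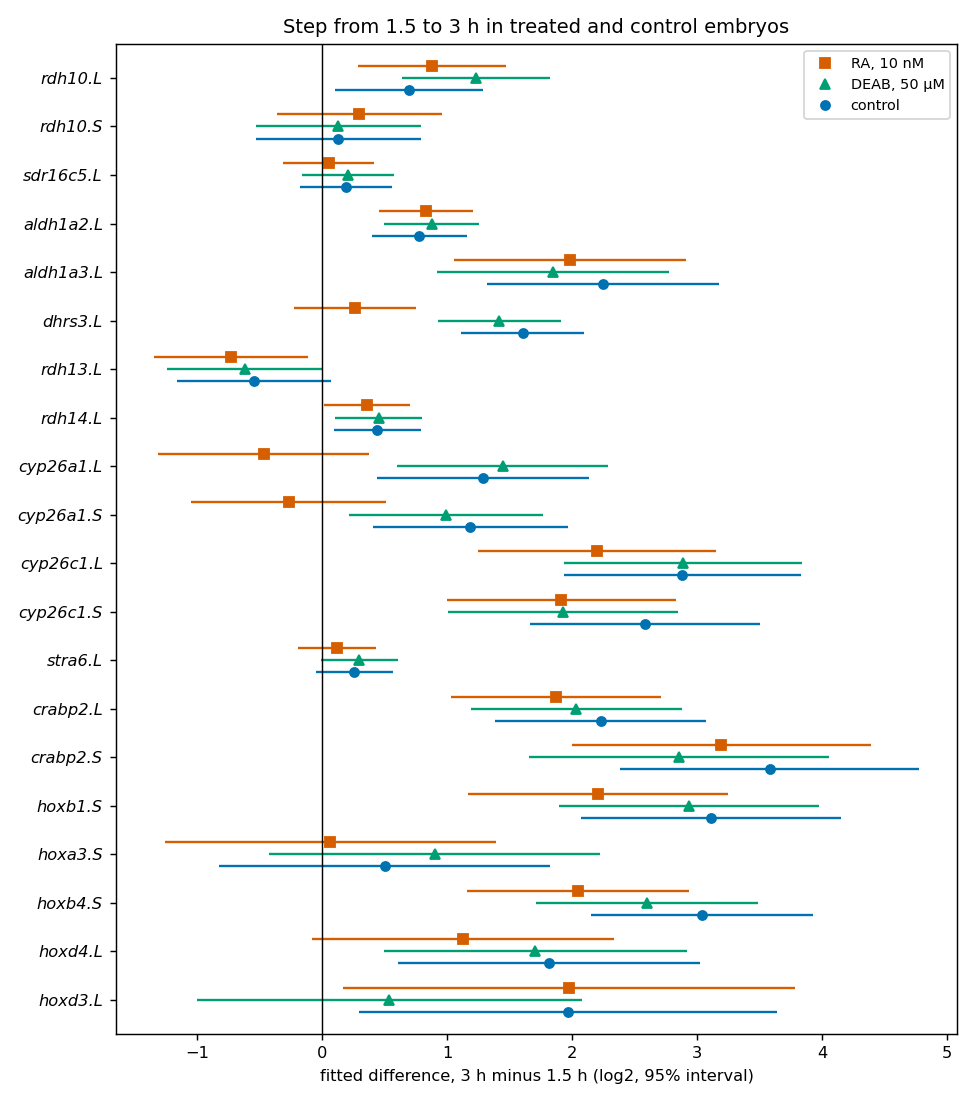
Fitted difference (log2), 3 h minus 1.5 h, with its 95% interval for 20 target genes in RA, DEAB and control embryos. The RA point lies well left of the control point for dhrs3.L (0.26 and 1.60), cyp26a1.L (-0.47 and 1.29) and cyp26a1.S (-0.27 and 1.19), and the DEAB points lie within the control intervals for all 20 genes.

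Between DEAB and control embryos 0 genes differed in this step (0% higher and 0% lower), and 0 had an unadjusted p under 0.05. The smallest p-values belonged to rdh10.L, at 0.53 (95% interval -0.31 to 1.37), hoxd3.L, at -1.43 (95% interval -3.71 to 0.84), and cyp26c1.S, at -0.66 (95% interval -1.96 to 0.64), each with an adjusted p of 0.997. These intervals still allow a gene to differ by more than 1 on the log2 scale. crabp2.S had a smaller step under DEAB in 6 of 6 clutches, 2.85 in DEAB embryos and 3.58 in control embryos, a difference of -0.73 (SE 0.85, adjusted p = 0.997).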

How the data were processed

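High-throughput quantitative PCR was run by the authors on cDNA of pooled whole embryos, preamplified before the run. Per the labels and methods, Ct values (a score) are medians over 3 preamplifications. Deposited log2 values were recomputed from the deposited Ct values: 1637 target values equalled gapdh Ct minus gene Ct minus the median of that difference over 72 samples, within 0.001. Preamplification and 1 reference gene affect them, since unequal efficiency stretches differences and gapdh moves every gene. The methods list gapdh.S and the S member of hoxd3, the files gapdh and hoxd3.L. All 24 gene IDs matched the RefSeq table of Xenopus_laevis_v10.1. Genome coordinates were not used here.

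Groups came from the sample titles. limma 3.58.1 (R 4.3.3; lmFit, eBayes) was fitted to all 72 samples in 12 groups with clutch as a fixed block, with Benjamini-Hochberg adjustment over 23 genes (5 pairs for L minus S) and a threshold of 0.05. Clutch letters pair samples because a clutch comes from 1 female. Deviations from group means correlated by a mean of 0.53 between the 2 times of a clutch (lowest -0.23) and -0.11 between clutches. Such deviations cancel out over the clutches, so the second mean largely follows from the first. gapdh was tested by sign flips over 64 assignments. The script was tested on simulated data. The panel is the study's own, and its members and the 4 lists were chosen with earlier results of these data known. 20 genes are named whether called or not. In comparisons of steps the called genes, or the 3 with the smallest p, are named, and other genes there were named after their values were seen. Some genes enter the fits, counts and list medians without being reported here by name. Alternatives were other blocks, sample sets, references and adjustments, robust eBayes, exact tests, and each clutch left out.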

Additional observations from a re-analysis of the deposited data

Results flagged for a closer look

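In control embryos 62 sets of 6 or fewer values were examined. They were levels at 3 h, levels at 1.5 h and differences of the named genes and of gapdh. By Dixon's ratio 4 of the 62 held a sample far from the rest, a share close to the about 5% that chance gives. The sets are not independent, since each difference is made from 2 of the levels. The 4 are listed as values to check, not as results. The difference of crabp2.S was 5.75 in clutch J, against 2.68 to 3.51 in the other clutches. The difference of rdh10.S was -1.41 in clutch J, against 0.06 to 0.86 in the others. The level of rdh13.L at 1.5 h was 1.85 in clutch G, against -0.97 to -0.03 in the others. The level of cyp26a1.S at 1.5 h was -1.64 in clutch I, against -0.83 to -0.38 in the others. The step of dhrs3.L from 1.5 to 3 h differed between RA and control embryos by -1.34, a difference between groups that passed limma's test (adjusted p = 0.0064).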

How the results depend on the processing

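The 17 genes called higher became 14 with no replicate block, all of them among the 17, after the calls of rdh10.L, rdh14.L and hoxd3.L ended, and 15 in fits of 24 control samples or of the 12 samples alone. They stayed 17 with a random clutch-by-time block, robust eBayes or adjustment over the 3 control steps together, and ranged from 15 to 17 with each clutch left out. They were 8 with no reference gene, 5 against the panel mean, and 0 by the exact sign-flip test, whose p cannot go below 0.03125. Genes called lower, 0 in the report, were 1 with no reference gene, 8 with the panel mean, and 0 to 1 with each clutch left out. With the panel mean 1 gene (hoxb4.S) differed from the step from 0 to 1.5 h, and 0 to 1 did with each clutch left out. Against the step from 3 to 4.5 h the range was 0 to 1. The count of 1 gene for RA against control embryos was 0 with no replicate block, 0 on the Ct alone, 0 against the panel mean, 3 with a clutch-by-time block, and 1 to 2 with each clutch left out. Of the pairs, 2 passed in the 12 samples alone. The rise of gapdh Ct was 0.60 to 0.77 cycles with each clutch left out, where 5 clutches cannot give an exact p below 0.0625.

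Direction turned with no reference gene for rdh10.S (-0.52), sdr16c5.L (-0.46), rdh14.L (-0.21), stra6.L (-0.39) and hoxa3.S (-0.15). It turned with the panel mean for rdh10.L (-0.77), rdh10.S (-1.33), sdr16c5.L (-1.27), aldh1a2.L (-0.69), rdh14.L (-1.02), cyp26a1.L (-0.18), cyp26a1.S (-0.28), stra6.L (-1.20) and hoxa3.S (-0.96). The difference of rdh10.S ranged from -0.018 to 0.44 with each clutch left out. Of 472 values of single genes and pairs under an alternative, 401 kept direction and side of the threshold and 15 turned. Of those that did not turn, 45 lost a call and 11 gained one. A call lost or gained together with a turn is counted among the 15 only. Examples are rdh14.L with no reference gene, whose call ended, and stra6.L with the panel mean, which was then called lower. Depth could not be assessed, since a Ct gives no molecule count.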
